A study of Mus musculus with 36 samples.

Results

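The 5 genes described here encode proteins of the desmosomal plaque, the related plakins of the cornified envelope and a desmosomal membrane protein, measured here in mouse keratinocytes: Dsp (desmoplakin), Jup (plakoglobin), Ppl (periplakin), Evpl (envoplakin) and Perp. They were taken by their symbols from the deposited table of read counts, which lists 55358 genes, and all 5 passed the filter on low counts that left 15114 genes for testing. RNA sequencing had been performed on murine keratinocytes of 3 lines, cultured for either 24 h or 72 h. The medium held little calcium (low calcium medium, LCM, 50 µM CaCl2) or was LCM to which 1.2 mM CaCl2 had been added (high calcium medium, HCM). This gave 12 groups of 3 libraries. WT cells came from Pkp4+/+ newborn pups. PKP4-KO cells came from Pkp4-/- pups of the same intercross, which carry a Pkp4 tm1b allele without exon 9 on a C57BL/6J background. Rescue cells are PKP4-KO cells that stably express EGFP-tagged human PKP4 from a lentivirus and were selected with puromycin, a step that the WT and PKP4-KO cells of this series are not labelled as having undergone. How many pups gave rise to each line is not stated, and the genotype cannot be told apart from other differences between the cells of different pups. The labels do not say that the libraries of a group came from separate cultures, and the p-values therefore measure the spread between these libraries only.

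Desmosomes are the junctions that tie the keratin networks of neighbouring keratinocytes together. Their cadherins, the desmogleins and desmocollins, bind plakoglobin and plakophilins with their cytoplasmic tails, and desmoplakin links this plaque to the keratin filaments. Desmoplakin, periplakin and envoplakin belong to the plakin family of cytolinkers. Periplakin and envoplakin form a heterodimer that is among the first components of the cornified envelope and becomes crosslinked by transglutaminases when keratinocytes differentiate. Plakoglobin, an armadillo protein related to β-catenin, is shared by desmosomes and adherens junctions. Perp is a tetraspan membrane protein of the desmosome and a known target of p53 and p63. Raising the calcium concentration triggers both junction assembly and differentiation in cultured keratinocytes.

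The genes lie on 4 chromosomes of GRCm39. Dsp (ENSMUSG00000054889) is on the forward strand at chr13:38335230-38382553, and its canonical transcript has 24 exons and 9632 bp. Jup (ENSMUSG00000001552) lies on the reverse strand at chr11:100259784-100291103, and Evpl (ENSMUSG00000034282) on the reverse strand of the same chromosome at chr11:116111385-116128923. Ppl (ENSMUSG00000039457) is on the reverse strand at chr16:4904155-4950377, and Perp (ENSMUSG00000019851) on the forward strand at chr10:18720715-18732821. An exon of Gm10129 on the opposite strand covers 5.56% of the exons of Dsp. The libraries were strand-specific but the strand setting of the counting is not given in the sources used here, so that reads of Gm10129 could be part of the Dsp counts. The 250 bp before the annotated start of the canonical transcript are shown for the 3 genes of the plakin family. They are printed 5′ to 3′ on the strand of the gene. Capitals mark matches, on either strand, to the GC box GGGCGG or to the p53/p63 half-site. The AP-1 motif TGANTCA was searched as well. So was the TATA box TATAAA. The last motif searched was the E box CACGTG.
Dsp, chr13:38334980-38335229, forward: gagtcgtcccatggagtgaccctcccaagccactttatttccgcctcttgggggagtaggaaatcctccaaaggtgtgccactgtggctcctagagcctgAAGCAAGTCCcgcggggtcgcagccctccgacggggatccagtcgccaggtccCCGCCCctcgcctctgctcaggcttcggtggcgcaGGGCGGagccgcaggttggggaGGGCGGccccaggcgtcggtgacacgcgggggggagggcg
Ppl, chr16:4950378-4950627, reverse: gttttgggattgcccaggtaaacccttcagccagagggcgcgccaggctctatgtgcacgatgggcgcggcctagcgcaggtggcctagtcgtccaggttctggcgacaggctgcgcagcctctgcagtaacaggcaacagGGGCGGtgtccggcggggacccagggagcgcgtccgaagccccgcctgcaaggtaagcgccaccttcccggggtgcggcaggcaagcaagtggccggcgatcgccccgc
Evpl, chr11:116128924-116129173, reverse: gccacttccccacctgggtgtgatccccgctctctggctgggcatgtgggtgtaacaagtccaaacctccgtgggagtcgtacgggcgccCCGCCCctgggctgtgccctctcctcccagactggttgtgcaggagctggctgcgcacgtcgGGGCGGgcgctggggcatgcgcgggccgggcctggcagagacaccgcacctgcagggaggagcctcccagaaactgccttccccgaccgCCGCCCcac
GGGCGG occurred 3 times in the windows of Dsp and Evpl and once in that of Ppl. The same window held it once in Jup and not in Perp, beside 36.3% of 21757 promoters of the annotation. The single p53/p63 half-site was that of Dsp, a pattern found in 6.69% of all windows. The AP-1 motif, the TATA box and the E box, which occur in 6.18%, 11.9% and 6.26% of all windows, had no match in the 5 windows.

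The libraries held between 13602728 and 22467187 counts. Levels are given as CPM, read counts scaled to a common library size with TMM factors, which adjust for differences in RNA composition. These factors ranged from 0.48 to 0.55 for PKP4-KO at 72 h HCM, and from 0.71 to 1.39 elsewhere. Endogenous Pkp4 had 33.4 to 76.3 CPM in the 12 WT libraries, 6.4 to 14.1 CPM in PKP4-KO and 6.52 to 11.9 CPM in Rescue, and the transgene had 1902 to 15325 counts in the Rescue libraries against at most 113 elsewhere. Keratinocyte markers, a list that includes Dsp and Perp themselves, summed to at least 28041 CPM in every library. The summed markers of fibroblasts, melanocytes, endothelial cells and leukocytes reached at most 11.5, 2.03, 5.41 and 0.762 CPM. Simple-epithelium keratins (Krt7, Krt8, Krt18 and Krt19) summed to 90.8 to 377.6 CPM in Rescue, 3.59 to 19 CPM in WT and 6.04 to 13.3 CPM in PKP4-KO. Most of the sum in Rescue was Krt7, with a median of 178 CPM against 6.07 in WT and 9 in PKP4-KO. Krt8, Krt18 and Krt19 had medians of 3.83, 0.494 and 2.23 CPM in Rescue. The part of these keratins in the differences involving Rescue was not tested. In bulk RNA, fewer cells expressing a gene and less RNA per cell cannot be told apart.

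A total of 7 libraries stood apart from the others of their group, in that long genes had lower levels relative to short ones: the slope of their deviation from the group mean on log2 gene length lay between -0.27 and -0.11 over 7881 protein-coding genes, against -0.08 to 0.23 in the other 29 libraries. They comprised replicate 2 of WT at 24 h HCM, replicate 3 of WT at 72 h HCM, replicate 1 of PKP4-KO at 24 h LCM, replicate 3 of PKP4-KO at 24 h HCM, replicate 2 of PKP4-KO at 72 h LCM, replicate 3 of Rescue at 24 h LCM and replicate 2 of Rescue at 72 h LCM. Dsp, Ppl and Evpl were each lowest of their group in all 7, and Jup was highest of its group in all 7. Dsp lay 0.72 to 0.48 below its group mean on the log2 scale in these libraries. Perp was lowest in 6 of them. The part of this property in the results below was not tested beyond the values without these libraries, with the slope as a covariate, and with length and GC trends removed from each library. The slope is relative to the group mean, so the covariate cannot adjust for length effects between groups. Without these libraries no call of the 5 genes was lost, and the calls that were gained are named with each comparison. Leaving them out was chosen after seeing the data. Since Dsp, Ppl, Evpl and Jup were at the extremes of their groups in these libraries, their removal narrows the spread within groups. The calls gained in this way are therefore no separate test of a difference. With the trends removed, calls were both gained and lost. Among those lost were Dsp in PKP4-KO against WT at 72 h LCM (-0.57, edgeR adjusted p = 0.0699) and in Rescue against PKP4-KO at 72 h HCM (0.30, edgeR adjusted p = 0.301).

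**Figure D1:**
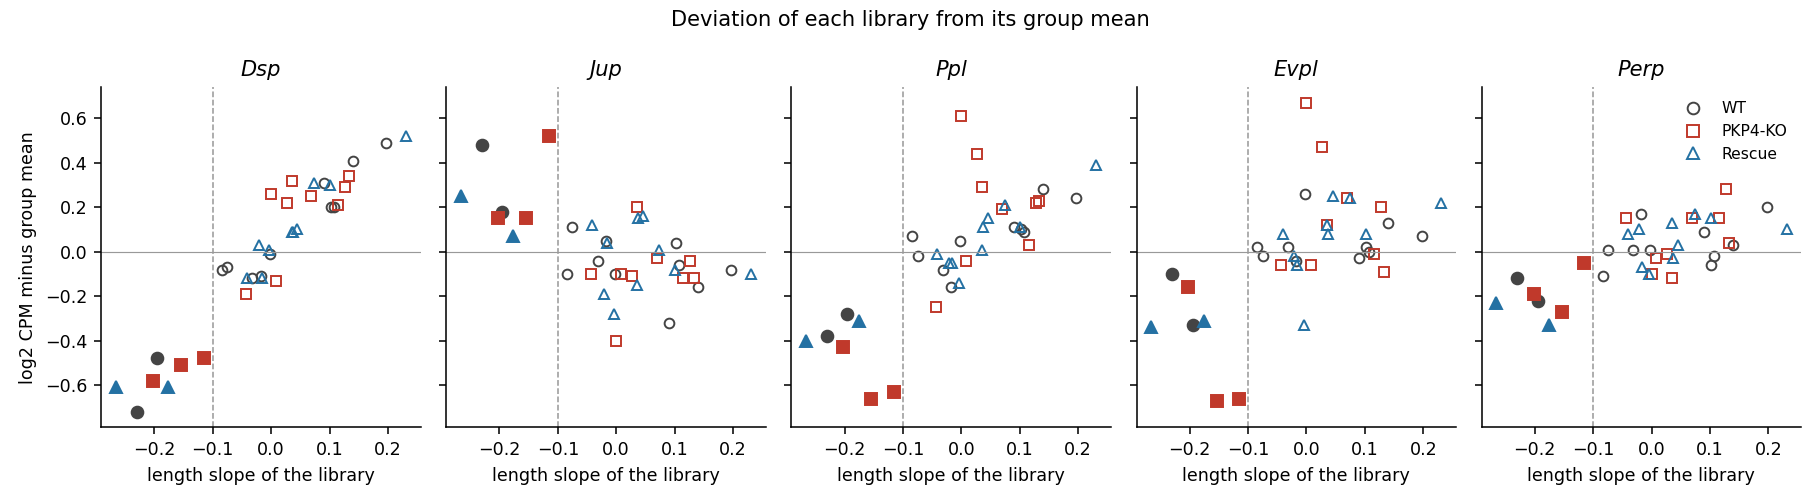
Deviation of each of the 36 libraries from its group mean (y axis, log2 CPM) against the slope of that library on gene length (x axis, log2 units per doubling of gene length) for the 5 genes. Filled symbols left of the dashed line are the 7 libraries with a slope below -0.1, in which Dsp was 0.72 to 0.48 below its group mean and Jup 0.07 to 0.52 above it.

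Per kb of gene length, Perp was the most abundant of the 5 genes in every group, with 469.5 to 2726.2 CPM per kb, and its mean over all libraries was higher than that of 99.6% of the tested protein-coding genes. Jup had 115 to 378.4 CPM per kb and Dsp 97.9 to 215.2, the 97.9th and 97.5th percentile. Ppl and Evpl were less abundant, with 15.6 to 120.7 and 18.8 to 101.8 CPM per kb. Jup ranked above Dsp in 10 of the 12 groups, the exceptions being Rescue at 24 h LCM and at 72 h HCM. The deposited length of Jup was 6436 bp, but its canonical transcript has 3302 bp. For Dsp these lengths were 9659 and 9632 bp. The level of Jup per kb, its percentile and its rank beside Dsp therefore depend on the length taken. Between groups, Dsp varied least of the 5, by a factor of 2.2, with a highest mean of 2078.9 CPM in Rescue at 72 h HCM and a lowest of 945.8 CPM in PKP4-KO at 24 h LCM, and all 11 neighbouring groups in its order overlapped within their SD. Its 4 lowest groups were those of PKP4-KO. Ppl spanned a factor of 7.75 between WT at 72 h HCM (832 CPM) and PKP4-KO at 24 h LCM (107.3 CPM), Perp a factor of 5.81 and Evpl one of 5.42. The order of Jup had PKP4-KO at 72 h HCM at the top (2435.4 CPM) and Rescue at 72 h HCM at the bottom (740.3 CPM). Of the 11 pairs of neighbours, 10 overlapped within their SD for Jup and Ppl, 9 for Evpl and 8 for Perp.

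**Figure D2:**
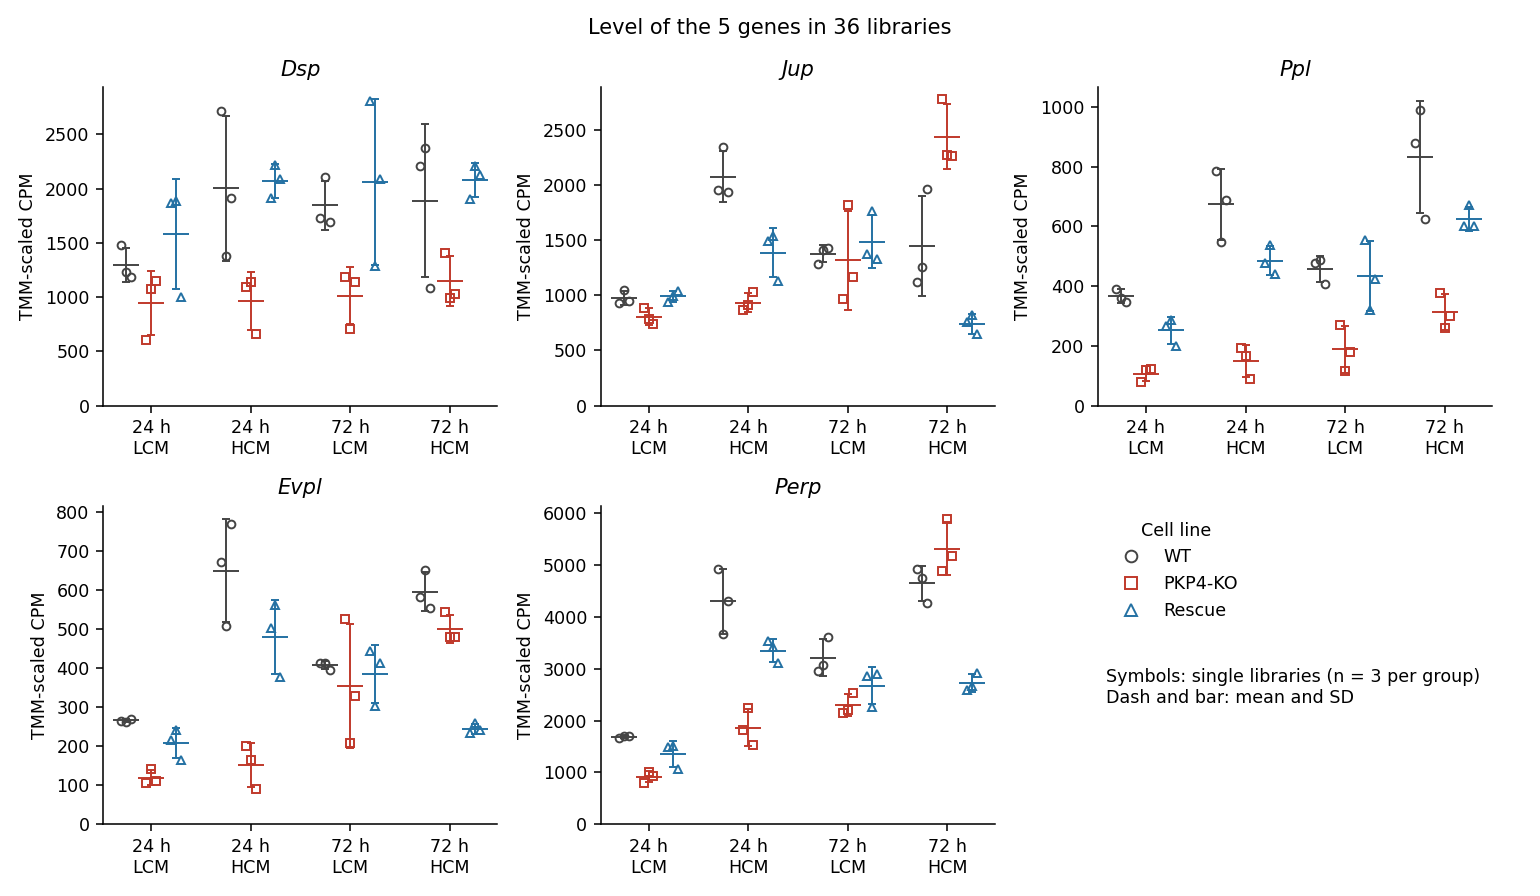
TMM-scaled CPM (y axis) of the 5 genes in every library of WT, PKP4-KO and Rescue at 24 h and 72 h in LCM and HCM (x axis), with the mean and SD of 3 libraries. The 4 PKP4-KO groups had the lowest means of Dsp, whereas Jup and Perp had their highest means, 2435.4 and 5321.6 CPM, in PKP4-KO at 72 h HCM.

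To describe how the levels of these genes differed between the 2 lines, PKP4-KO was compared with WT in each culture condition. After 24 h in HCM all 5 genes fell in PKP4-KO, with a median log2 fold change of -1.21 beside 0 over all genes tested. A lower level was called for 22.2% of all genes in this comparison. The plakins of the cornified envelope fell most. In WT at 24 h HCM, Ppl had 785, 548 and 689 CPM in the 3 libraries, and in PKP4-KO 193, 166 and 90.3 CPM. All PKP4-KO libraries were below all WT libraries, a placement of 24.1% of all genes in this comparison. The log2 fold change of Ppl was -2.17 (SE 0.28, edgeR adjusted p = 1.92e-07). SE is the standard error, and adjusted p-values, called below 0.05, come from the quasi-likelihood test of edgeR, with the method of Benjamini and Hochberg applied over all tested genes. Evpl had 673, 508 and 769 CPM in WT and 200.4, 166 and 90.6 CPM in PKP4-KO. Again the lines did not overlap, with a log2 fold change of -2.09 (SE 0.26, edgeR adjusted p = 1.15e-07). Perp had 4924, 3680.0 and 4308 CPM in WT and 1826, 2241 and 1534 CPM in PKP4-KO. Its log2 fold change was -1.21 (SE 0.16, edgeR adjusted p = 2.42e-07). Jup fell from 1953, 2339.7 and 1933 CPM to 865, 907 and 1031 CPM, also without overlap. Dsp had 2711, 1381 and 1913 CPM in WT and 1092, 1138 and 656 CPM in PKP4-KO, and the lowest WT library, one with a low slope on gene length, still exceeded the highest PKP4-KO library. Without the 7 libraries with a low slope the log2 fold change of Dsp was -1.08 (edgeR adjusted p = 2.63e-05), against -1.06 with them. In the fits that left out 1 library it was not called without replicate 3 of PKP4-KO or without replicate 1 of WT (highest edgeR adjusted p = 0.0714). Nor was Dsp called with library sizes without TMM factors (-1.01, edgeR adjusted p = 0.0534).

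In LCM, where desmosomes are not assembled, Ppl, Evpl and Perp were lower in PKP4-KO at 24 h, while Dsp and Jup did not pass the test. The 3 calls of 5 genes compare with 20.6% of all genes called lower. All 5 genes were lower in each PKP4-KO library than in each WT library, a placement of 25.7% of all genes. Ppl had 391, 362 and 347 CPM in WT and 78.2, 120.3 and 123 CPM in PKP4-KO, a log2 fold change of -1.77 (SE 0.27, edgeR adjusted p = 6.14e-06). Evpl ranged from 263 to 271 CPM in WT and from 107 to 141 CPM in PKP4-KO, and Perp from 1667 to 1705 CPM in WT and from 799 to 1015 CPM in PKP4-KO. No library of one line reached those of the other for either gene. Their log2 fold changes were -1.15 (SE 0.25, edgeR adjusted p = 0.000536) and -0.88 (SE 0.15, edgeR adjusted p = 3.66e-05), respectively. Jup had a log2 fold change of -0.28 (SE 0.19, edgeR adjusted p = 0.265) and Dsp one of -0.45 (SE 0.31, edgeR adjusted p = 0.255). Without the 7 libraries with a low slope, Jup was called at -0.38 (edgeR adjusted p = 0.0281).

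After 72 h the pattern divided in the fit with TMM factors. In LCM at 72 h, Dsp, Ppl and Perp fell in PKP4-KO, 3 of 5 genes beside 23.8% of all genes called lower. Dsp had 1733, 2106 and 1695 CPM in WT and 1181, 709 and 1143 CPM in PKP4-KO. All PKP4-KO libraries were lower, as was so for 28.7% of all genes. The log2 fold change of Dsp was -0.87 (SE 0.31, edgeR adjusted p = 0.0258). It was not called without replicate 2 of PKP4-KO or without replicate 2 of WT (highest edgeR adjusted p = 0.137). The decrease of Perp at this time, -0.49 (SE 0.15, edgeR adjusted p = 0.0111), was not called without replicate 3 of WT (edgeR adjusted p = 0.0664). Ppl had a log2 fold change of -1.28 (SE 0.27, edgeR adjusted p = 0.000314). Jup and Evpl overlapped between the lines, and their log2 fold changes at 72 h LCM were -0.06 and -0.20. Without the 7 libraries with a low slope, Jup was called lower (-0.38, edgeR adjusted p = 0.0251).

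In HCM at 72 h, the decrease of Ppl and the increase of Jup were called, each 1 of 5 genes, beside 29.9% of all genes called lower and 21.9% called higher. Ppl had 881, 989.9 and 626 CPM in WT and 379, 260.5 and 299.9 CPM in PKP4-KO. Its log2 fold change of -1.41 (SE 0.27, edgeR adjusted p = 8.75e-05) made Ppl the single gene of the 5 that was called lower in all 4 conditions. The share of all genes called lower in all 4 is not given here. Jup had 1119, 1254 and 1958 CPM in WT and 2777, 2266 and 2263 CPM in PKP4-KO. Each PKP4-KO library exceeded each WT library, as was so for 27.3% of all genes. The log2 fold change of Jup was 0.75 (SE 0.2, edgeR adjusted p = 0.00209), but 0.04 (edgeR adjusted p = 0.83) with library sizes without TMM factors. Those factors shift this comparison for all genes, the median log2 fold change over which was -0.07 with TMM factors and -0.83 without. Evpl was lower in all PKP4-KO libraries, with 543, 479.7 and 479 CPM against 583, 652 and 554 CPM in WT, but did not pass the test (-0.25, SE 0.25, edgeR adjusted p = 0.404). Such a placement held for 30.9% of all genes. With library sizes without TMM factors Evpl was called lower (-1.03, edgeR adjusted p = 0.00649). Perp overlapped, with 4933, 4752 and 4279 CPM in WT and 4892, 5892 and 5181 CPM in PKP4-KO. The log2 fold change of Perp was 0.19 (SE 0.15, edgeR adjusted p = 0.295), but -0.59 (edgeR adjusted p = 0.0278) when TMM factors were left out. Dsp had -0.72 (SE 0.31, edgeR adjusted p = 0.0552) and was called at -0.98 (edgeR adjusted p = 1.19e-05) without the libraries with a low slope. It was also called lower when TMM factors were left out (-1.55, edgeR adjusted p = 0.00217). The change of the PKP4-KO effect from 24 h to 72 h in HCM was itself tested. The difference between the log2 fold changes was 1.91 (SE 0.28, edgeR adjusted p = 6.05e-06) for Jup, 1.84 (SE 0.35, edgeR adjusted p = 0.000245) for Evpl and 1.40 (SE 0.22, edgeR adjusted p = 1.62e-05) for Perp. A difference above 0 was called for these 3 of 5 genes and for 10.8% of all genes. For Dsp and Ppl it was 0.34 and 0.76, with 95% intervals from -0.57 to 1.25 and from -0.01 to 1.53. In LCM the same difference was called for 0 of 5 genes with edgeR and with DESeq2, beside 5.25% of all genes, and 1 of 5 had an unadjusted p below 0.05. Without the libraries with a low slope it was called for Evpl (1.16, edgeR adjusted p = 0.00154).

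**Figure D3:**
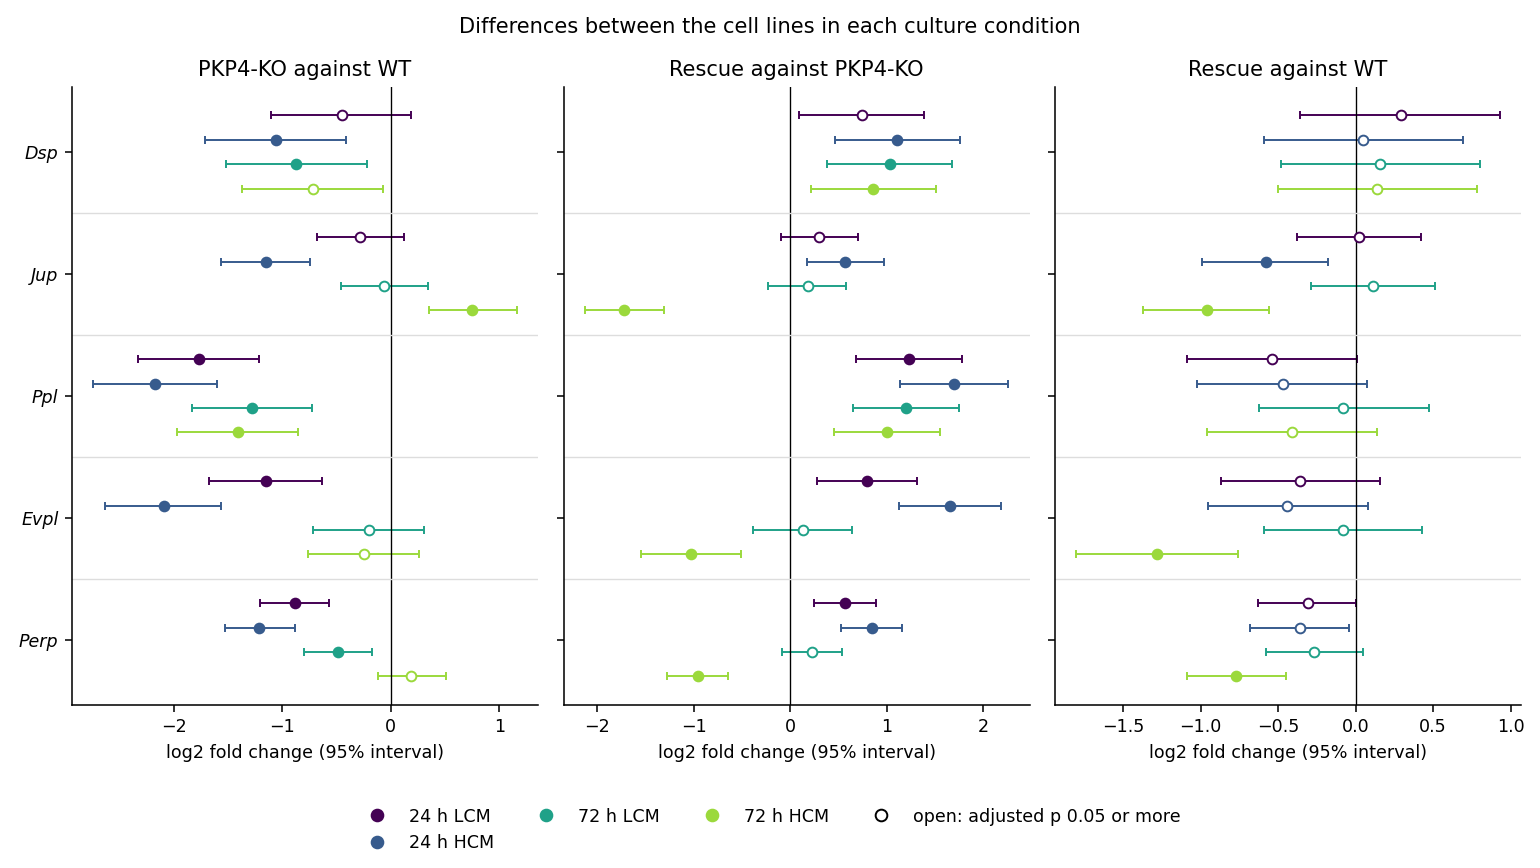
Log2 fold change with its 95% interval (x axis) of the 5 genes (y axis) for PKP4-KO against WT, Rescue against PKP4-KO and Rescue against WT in the 4 culture conditions; filled symbols have an adjusted p-value below 0.05. Ppl lay between -2.17 and -1.28 in PKP4-KO against WT and between 1 and 1.70 in Rescue against PKP4-KO, while Jup, Evpl and Perp changed sign in Rescue against PKP4-KO at 72 h HCM.

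Rescue was compared with PKP4-KO to ask how these levels differed when GFP-PKP4 was present. The comparison shares its PKP4-KO libraries with the preceding one. At 24 h in HCM all 5 genes were higher in Rescue than in PKP4-KO, beside 21.7% of all genes called higher. Ppl had 479, 536 and 440.1 CPM in Rescue, all above the PKP4-KO libraries, and a log2 fold change of 1.70 (SE 0.27, edgeR adjusted p = 8.62e-06). Rescue lay above PKP4-KO in this way for 27% of all genes. Evpl had 502, 562 and 377 CPM and 1.66 (SE 0.25, edgeR adjusted p = 4.64e-06). Dsp had 1909, 2220.2 and 2087 CPM and Perp 3533, 3413 and 3117 CPM. Both were above every PKP4-KO library, by 1.11 (SE 0.32, edgeR adjusted p = 0.0056) and 0.85 (SE 0.15, edgeR adjusted p = 5.28e-05) on the log2 scale. Jup, with 1491, 1533 and 1134 CPM, rose least (0.57, SE 0.2, edgeR adjusted p = 0.0202), and leaving out a single library ended the call in 4 of 6 fits (highest edgeR adjusted p = 0.0799): each of replicates 1 and 2 of Rescue and each of replicates 1 and 2 of PKP4-KO. With length and GC trends removed from each library, Jup was not called (0.45, edgeR adjusted p = 0.0536).

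In LCM, Ppl was higher in Rescue at both times, by 1.23 (SE 0.27, edgeR adjusted p = 0.000609) at 24 h and 1.2 (SE 0.27, edgeR adjusted p = 0.000638) at 72 h. At 24 h Evpl and Perp were called with it, 3 of 5 genes beside 18.2% of all genes called higher. Evpl had 217, 242 and 165 CPM in Rescue at 24 h LCM and 107, 141 and 112 CPM in PKP4-KO. All Rescue libraries were higher, a placement of 21.8% of all genes. The call of Evpl (0.80, SE 0.25, edgeR adjusted p = 0.0141) ended without replicate 2 of Rescue and without replicates 1 or 3 of PKP4-KO (highest edgeR adjusted p = 0.0748). At 72 h Dsp was called with Ppl, 2 of 5 genes beside 23.3% of all genes. Dsp had 2810.0, 1287 and 2084 CPM in Rescue, which lay just above the highest PKP4-KO library in the lowest case, and a log2 fold change of 1.03 (SE 0.31, edgeR adjusted p = 0.00977). Rescue lay above PKP4-KO without overlap for 23.5% of all genes. The call of Dsp ended without replicate 1 of Rescue or without replicate 2 of PKP4-KO (highest edgeR adjusted p = 0.0949). At 24 h LCM, Dsp had 0.74 (SE 0.31, edgeR adjusted p = 0.0696) and was called without the 7 libraries with a low slope (0.76, edgeR adjusted p = 0.00175).

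At 72 h in HCM the genes went in opposite directions between Rescue and PKP4-KO. Dsp and Ppl were higher in Rescue, 2 of 5 genes beside 37.2% of all genes called higher, and Jup, Evpl and Perp were lower, 3 of 5 beside 29.5% called lower. Jup had 758, 817 and 646 CPM in Rescue against 2777, 2266 and 2263 CPM in PKP4-KO, without overlap. Of all genes, 33.6% were lower in Rescue without overlap and 41.9% higher. The log2 fold change of Jup was -1.72 (SE 0.2, edgeR adjusted p = 3.64e-08), and -0.54 (edgeR adjusted p = 0.00154) with library sizes without TMM factors. Evpl had 235, 259 and 241 CPM in Rescue and 543, 479.7 and 479 CPM in PKP4-KO. Its decrease, -1.03 (SE 0.25, edgeR adjusted p = 0.000804), changed to 0.15 (edgeR adjusted p = 0.677) with library sizes without TMM factors. Perp had 2592, 2665 and 2922 CPM in Rescue. Its decrease of -0.96 (SE 0.15, edgeR adjusted p = 5.39e-06) likewise changed to 0.22 (edgeR adjusted p = 0.392) without TMM factors, and to -0.07 (edgeR adjusted p = 0.801) when trends on gene length and GC content were removed from each library. The median log2 fold change over all genes in this comparison was 0.20 with TMM factors and 1.37 without. Ppl had 603, 673 and 602 CPM in Rescue, all above PKP4-KO, and 1 (SE 0.27, edgeR adjusted p = 0.00188). Dsp had 0.86 (SE 0.31, edgeR adjusted p = 0.0179), a call that ended without replicate 2 or 3 of PKP4-KO (highest edgeR adjusted p = 0.0668). From 24 h to 72 h in HCM, the log2 fold change between Rescue and PKP4-KO fell by 2.29 for Jup (edgeR adjusted p = 1.92e-07), by 2.69 for Evpl (edgeR adjusted p = 7.79e-07) and by 1.81 for Perp (edgeR adjusted p = 1.63e-07). Such a decrease was called for these 3 of 5 genes and for 20.1% of all genes. In LCM the corresponding change was called for 0 of 5 genes with edgeR and DESeq2, beside 5.25% of all genes, and 0 of 5 had an unadjusted p below 0.05. Without the libraries with a low slope that of Evpl in LCM was called (-0.87, edgeR adjusted p = 0.0252).

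Rescue was then set against WT, a comparison in which the number of calls depended on the libraries with a low slope. With edgeR and all libraries, 0 of 5 genes were called at 24 h LCM and 0 of 5 at 72 h LCM, and with DESeq2 0 of 5 at both times, whereas 24.8% and 32.4% of all genes were. Unadjusted p-values were below 0.05 for 1 of 5 genes at 24 h and 0 of 5 at 72 h. The calls do not show that the levels were equal: at 24 h LCM the interval of Ppl reached from -1.09 to 0.01 and that of Dsp from -0.36 to 0.93 on the log2 scale. All Rescue libraries lay below all WT libraries for Ppl, Evpl and Perp at this time, where 19.7% of all genes were placed in this way. In HCM at 24 h, Jup was the 1 of 5 genes called lower in Rescue, beside 11.4% of all genes. Jup had 1953, 2339.7 and 1933 CPM in WT and 1491, 1533 and 1134 CPM in Rescue, a log2 fold change of -0.58 (SE 0.2, edgeR adjusted p = 0.0294). It was not called without replicate 3 of Rescue or without replicate 2 of WT (highest edgeR adjusted p = 0.151). At 72 h HCM, Jup, Evpl and Perp were lower in Rescue than in WT, 3 of 5 genes beside 16.7% of all genes. No Rescue library reached a WT library for these 3 of 5 genes, as was so for 24.3% of all genes. Evpl differed most, with 235, 259 and 241 CPM in Rescue and 583, 652 and 554 CPM in WT (-1.28, SE 0.25, edgeR adjusted p = 0.000246). Jup and Perp had log2 fold changes of -0.96 (SE 0.2, edgeR adjusted p = 0.000363) and -0.77 (SE 0.15, edgeR adjusted p = 0.000289), and that of Perp was -0.38 (edgeR adjusted p = 0.188) with library sizes without TMM factors. With length and GC trends removed from each library, Perp was not called either (-0.43, edgeR adjusted p = 0.118). The change of Rescue against WT from 24 h to 72 h was called for 0 of 5 genes by both tools in either medium, beside 3.91% of all genes in LCM and 10.5% in HCM with edgeR. Unadjusted p-values were below 0.05 for 0 of 5 genes in LCM and 1 of 5 in HCM. Of the 20 values of Rescue against WT, 4 were called with all libraries and 9 without the 7 libraries with a low slope, of which 2 are Rescue libraries in LCM. The share of all genes called in that fit is not given here, so the rise cannot be taken as particular to these 5 genes. Gained were Dsp at 24 h LCM, higher in Rescue (0.52, edgeR adjusted p = 0.0186), and at 24 h HCM lower levels of Ppl (-0.61, edgeR adjusted p = 0.00516), Evpl (-0.59, edgeR adjusted p = 0.00633) and Perp (-0.47, edgeR adjusted p = 0.00529). At 72 h HCM the lower level of Ppl was gained (-0.57, edgeR adjusted p = 0.00722). With the slope as a covariate 9 values were called too, among them in LCM Ppl at 24 h (-0.56, edgeR adjusted p = 0.00946) and Perp at 24 h (-0.33, edgeR adjusted p = 0.0155) and 72 h (-0.27, edgeR adjusted p = 0.038). The change of Evpl from 24 h to 72 h in HCM was called without the libraries with a low slope (-0.73, edgeR adjusted p = 0.0251). With all libraries Dsp had log2 fold changes between 0.05 and 0.29. Its 95% intervals had lower ends between -0.59 and -0.36 and upper ends between 0.69 and 0.93 on the log2 scale.

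Since calcium induces the differentiation of keratinocytes, HCM was compared with LCM within each line and time. With all libraries in the edgeR fit, Dsp was not called in any of the 6 comparisons, with log2 fold changes between 0.01 and 0.63 and 0 of 6 unadjusted p-values below 0.05. In WT at 24 h its value was 0.63 (SE 0.31, edgeR adjusted p = 0.21). With the replicate number as a block and only these 2 groups in the fit, it was 0.61 (edgeR adjusted p = 0.0466), and without the libraries with a low slope 0.83 (edgeR adjusted p = 0.000528). The other 4 genes rose in WT at 24 h, 4 of 5 beside 7.69% of all genes called higher. Perp went from 1667, 1705 and 1705 CPM in LCM to 4924, 3680.0 and 4308 CPM in HCM. Its HCM libraries all lay above its LCM libraries, as was so for 13.8% of all genes. Its log2 fold change was 1.35 (SE 0.16, edgeR adjusted p = 2.88e-07), followed by Evpl with 1.29 (SE 0.25, edgeR adjusted p = 0.000523) and Jup with 1.09 (SE 0.2, edgeR adjusted p = 0.000202). Ppl rose by 0.88 (SE 0.27, edgeR adjusted p = 0.0238), a call that held in 1 of the 6 fits that left out 1 library, the one without replicate 2 of WT in HCM (adjusted p from 0.0236 to 0.097, edgeR). In WT at 72 h, Ppl and Perp were called higher in HCM, 2 of 5 beside 10.6% of all genes. Their values were 0.86 (SE 0.27, edgeR adjusted p = 0.0193) and 0.53 (SE 0.15, edgeR adjusted p = 0.0124), and each was called in 3 of 6 fits with 1 library left out (highest edgeR adjusted p = 0.0872 and 0.0592). Evpl at 72 h, 0.55 (SE 0.25, edgeR adjusted p = 0.123), was called without the libraries with a low slope (0.58, edgeR adjusted p = 0.00904). For Ppl the call ended without replicates 1 or 2 of HCM or replicate 3 of LCM, and for Perp without replicate 1 of HCM or replicates 1 or 2 of LCM. With length and GC trends removed from each library, Perp was not called at 72 h (0.21, edgeR adjusted p = 0.507). With library sizes without TMM factors, neither gene was called in WT at 72 h. Ppl then had 0.59 (edgeR adjusted p = 0.23) and Perp 0.23 (edgeR adjusted p = 0.483). Nor was Ppl called at 24 h in that fit (0.6, edgeR adjusted p = 0.271).

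In PKP4-KO at 24 h, Perp was the 1 gene of 5 that rose with calcium, beside 1.44% of all genes called higher. It had 799, 1015 and 935 CPM in LCM and 1826, 2241 and 1534 CPM in HCM, a log2 fold change of 1.03 (SE 0.15, edgeR adjusted p = 0.000158). The adjusted p-value was 0.163 when only these groups were in the edgeR fit. Jup had 0.21 and Evpl 0.34, neither called. The difference between the calcium responses of PKP4-KO and WT at 24 h was called for 0 of 5 genes by edgeR and for 1 of 5 by DESeq2, beside 4.02% of all genes with edgeR. It was -0.87 (SE 0.28, edgeR adjusted p = 0.0747) for Jup and -0.94 (SE 0.35, edgeR adjusted p = 0.164) for Evpl, the 2 genes of 5 with an unadjusted p below 0.05. Both were called without the libraries with a low slope, at -0.78 (edgeR adjusted p = 0.0248) for Jup and -0.90 (edgeR adjusted p = 0.0294) for Evpl. In PKP4-KO at 72 h, 3 of 5 genes rose with calcium beside 12.9% of all genes: Jup by 0.89 (SE 0.2, edgeR adjusted p = 0.000912), Ppl by 0.73 (SE 0.27, edgeR adjusted p = 0.0351) and Perp by 1.21 (SE 0.16, edgeR adjusted p = 8.62e-07). With library sizes without TMM factors these values were 0.23, 0.03 and 0.51, and none was called (lowest edgeR adjusted p = 0.0654). The Ppl libraries of both media overlapped, and the call was lost without replicates 1 or 3 of HCM and without replicates 2 or 3 of LCM (highest edgeR adjusted p = 0.183). The difference of the calcium responses between PKP4-KO and WT at 72 h was called for 0 of 5 genes with edgeR and 2 of 5 with DESeq2, beside 5.74% of all genes, and 2 of 5 had an unadjusted p below 0.05. Without the libraries with a low slope it was called for Jup (1.44, edgeR adjusted p = 1.1e-05) and Perp (0.63, edgeR adjusted p = 0.0121).

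Rescue at 24 h responded to calcium with increases of Ppl, Evpl and Perp, 3 of 5 genes beside 6% of all genes called higher. Perp rose by 1.30 (SE 0.16, edgeR adjusted p = 7.64e-07), Evpl by 1.21 (SE 0.25, edgeR adjusted p = 0.00127) and Ppl by 0.95 (SE 0.27, edgeR adjusted p = 0.0166). The call of Ppl was lost without replicate 2 of HCM or without replicate 3 of LCM (highest edgeR adjusted p = 0.105). It was also lost with library sizes without TMM factors (0.9, edgeR adjusted p = 0.127). Jup was called without the libraries with a low slope (0.52, edgeR adjusted p = 0.00906), and with the slope as a covariate Dsp was called as well (0.44, edgeR adjusted p = 0.00327). The difference from the response of WT was called for 0 of 5 genes by both tools, beside 0.0662% of all genes with edgeR, and 1 of 5 had an unadjusted p below 0.05. The interval of the difference reached from -0.49 to 0.40 for Perp and from -0.70 to 0.84 for Ppl. The difference from PKP4-KO at 24 h was likewise called for 0 of 5 genes by both tools (1.41% of all genes with edgeR), 1 of 5 with an unadjusted p below 0.05. At 72 h, Jup fell with calcium in Rescue, the 1 gene of 5 called lower beside 12% of all genes. It had 1376, 1759 and 1324 CPM in LCM and 758, 817 and 646 CPM in HCM, without overlap, and a log2 fold change of -1.01 (SE 0.2, edgeR adjusted p = 0.000339). HCM lay below LCM in this way for 19% of all genes. Evpl was also lower in every HCM library but was not called (-0.66, SE 0.25, edgeR adjusted p = 0.0537), except without the libraries with a low slope (-0.80, edgeR adjusted p = 0.000473). The calcium response of Rescue at 72 h was below that of PKP4-KO for Jup (-1.89, SE 0.28, edgeR adjusted p = 1.01e-05), Evpl (-1.16, SE 0.35, edgeR adjusted p = 0.0143) and Perp (-1.19, SE 0.22, edgeR adjusted p = 0.000171), 3 of 5 genes beside 13.4% of all genes. It was below that of WT for Jup (-1.08, SE 0.28, edgeR adjusted p = 0.0079) and Evpl (-1.2, SE 0.35, edgeR adjusted p = 0.02), 2 of 5 genes beside 7.77% of all genes, and without the libraries with a low slope also for Perp (-0.65, edgeR adjusted p = 0.0145).

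**Figure D4:**
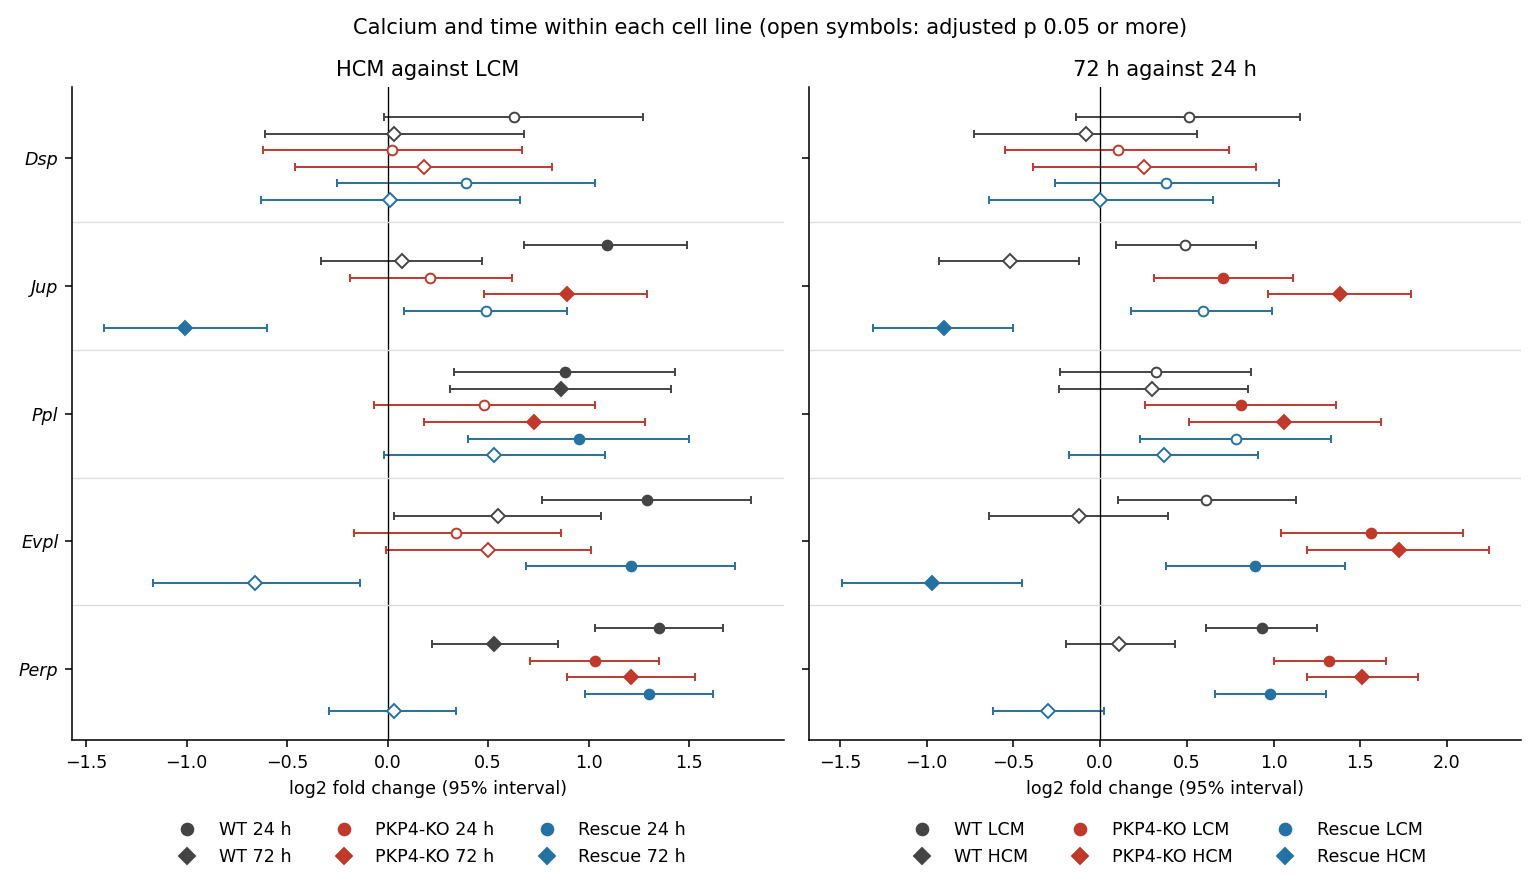
Log2 fold change with its 95% interval (x axis) of the 5 genes (y axis) for HCM against LCM in each line and time, and for 72 h against 24 h in each line and medium; filled symbols have an adjusted p-value below 0.05. No symbol of Dsp is filled, and Jup fell both with calcium at 72 h (-1.01) and with time in HCM (-0.90) in Rescue but rose in PKP4-KO (0.89 and 1.38).

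Time in culture was compared within each line and medium. With all libraries Dsp was not called in any of the 6 comparisons with edgeR, with log2 fold changes between -0.08 and 0.51, and 0 of 6 unadjusted p-values were below 0.05. In WT, Perp was the 1 gene of 5 that rose from 24 h to 72 h in LCM (0.93, SE 0.15, edgeR adjusted p = 0.000157), beside 5.29% of all genes called higher, although all 5 genes were higher in each 72 h library than in each 24 h library, a placement of 17.6% of all genes. In HCM, 0 of 5 genes were called in WT by edgeR or DESeq2, against 17.8% of all genes with edgeR, and 1 of 5 had an unadjusted p below 0.05. In PKP4-KO in HCM, 4 of 5 genes rose beside 24.3% of all genes: Evpl by 1.72 (SE 0.26, edgeR adjusted p = 2.53e-06), Perp by 1.51 (SE 0.16, edgeR adjusted p = 5.55e-09), Jup by 1.38 (SE 0.2, edgeR adjusted p = 1.47e-06) and Ppl by 1.06 (SE 0.27, edgeR adjusted p = 0.00144). With library sizes without TMM factors these values were 0.63, 0.43, 0.32 and -0.02, and none was called (lowest edgeR adjusted p = 0.0504). In PKP4-KO in LCM the same 4 genes rose, beside 12.4% of all genes, with Evpl going from 107, 141 and 112 CPM to 525, 209 and 328 CPM (1.56, SE 0.25, edgeR adjusted p = 2.83e-05) and Perp from 799, 1015 and 935 CPM to 2140.0, 2212 and 2535 CPM (1.32, SE 0.16, edgeR adjusted p = 1.8e-07). Jup (0.71) was not called without replicate 2 of PKP4-KO at 72 h (edgeR adjusted p = 0.133), and Ppl (0.81) not without replicate 1 at either time (highest edgeR adjusted p = 0.253). In Rescue in LCM, Evpl (0.89, SE 0.25, edgeR adjusted p = 0.0185) and Perp (0.98, SE 0.15, edgeR adjusted p = 3.68e-05) rose, 2 of 5 genes beside 6.84% of all genes. The call of Evpl was lost without replicate 1 or 3 at either time (highest edgeR adjusted p = 0.118). It was also lost with library sizes without TMM factors (0.79, edgeR adjusted p = 0.146). In that fit the calls in LCM of Perp in WT (0.71, edgeR adjusted p = 0.0549) and of Jup and Ppl in PKP4-KO (0.32 and 0.43, lowest edgeR adjusted p = 0.09) were lost too. In Rescue in HCM, Jup fell by 0.90 (edgeR adjusted p = 0.000982) and Evpl by 0.97 (edgeR adjusted p = 0.00469) on the log2 scale, 2 of 5 genes beside 10.7% of all genes called lower. Of the 30 values over time, 13 were called with all libraries, 21 without the 7 libraries with a low slope and 22 with the slope as a covariate. The shares of all genes called in these fits are not given here. Without these libraries Dsp (0.51, edgeR adjusted p = 0.0162), Jup (0.50, edgeR adjusted p = 0.00505) and Evpl (0.62, edgeR adjusted p = 0.00362) also rose in WT in LCM, and Jup fell in WT in HCM (-0.73, edgeR adjusted p = 0.00104). In Rescue in LCM, Jup (0.49, edgeR adjusted p = 0.0368) and Ppl (0.83, edgeR adjusted p = 0.00258) were gained, and in HCM Ppl (0.38, edgeR adjusted p = 0.0468) and Perp (-0.29, edgeR adjusted p = 0.0451). With the covariate Dsp was called in 3 of the 6 comparisons over time, WT in LCM (0.51), PKP4-KO in HCM (0.28) and Rescue in LCM (0.37; highest edgeR adjusted p = 0.0266). For Dsp in WT in LCM the log2 fold change was 0.51 with and without the covariate. That call came with a smaller SE (0.11 with the covariate), not with a larger difference.

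How closely the 5 genes followed each other was described over the 36 libraries by Pearson's r of log2 CPM, which reflects groups and libraries together. Dsp and Ppl had an r of 0.84, Ppl and Evpl of 0.80 and Evpl and Perp of 0.87. Dsp and Evpl had an r of 0.59, whereas Dsp and Jup had an r of 0.02. Within groups, that is with the group mean subtracted, Dsp and Ppl had an r of 0.89 and Ppl and Evpl of 0.89, but Evpl and Perp of 0.49. Dsp had an r of 0.68 within groups to Evpl and also to Perp. Jup was opposite to the plakins within groups, with an r of -0.64 to Dsp, -0.61 to Ppl and -0.51 to Evpl. These points share the libraries and with them the slope on gene length described above. The comparison covered 10907 protein-coding genes whose mean was 1 CPM or more. The genes most like Dsp were Atp6v1a, Daam1 and Usp32 (r = 0.93, 0.93 and 0.92). Those most like Ppl were Chmp4c, Tpd52 and Rab27b (r = 0.95 each). Jup was most like Cpne5, Krt6a and Ly6d (r = 0.91, 0.91 and 0.88), Evpl most like Ifi204, Phldb3 and Ankrd35 (r = 0.93, 0.90 and 0.90), and Perp most like Mal2, Lgalsl and Ifi204 (r = 0.94, 0.94 and 0.93). Krt6a and Ifi204 have closely similar copies in the genome, so that their counts are uncertain.

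The desmosomal cadherins, to which the plaque binds, fell together with the 5 genes after 24 h in HCM: all 8 tested genes of this list of 9 were called lower in PKP4-KO, with a median log2 fold change of -3.01, or -2.45 when a gene with at most 3 counts in every PKP4-KO library was set to its bound. Dsg3, a desmoglein of basal cells, had 573.9 ± 151.5 CPM (mean ± SD, n = 3, as for all levels that follow) in WT and 150.7 ± 29.5 CPM in PKP4-KO, a log2 fold change of -1.93 (SE 0.27, edgeR adjusted p = 1.07e-06). Dsc3, its desmocollin counterpart, had -1.73 (SE 0.39, edgeR adjusted p = 0.000587). Dsc2 went from 31.1 ± 10.4 CPM to 0.293 ± 0.219 CPM (-6.59, SE 0.5, edgeR adjusted p = 1.12e-11), and Dsg2 from 4.72 ± 1.19 CPM to 0.116 ± 0.107 CPM. Dsg2, Dsg3, Dsc2 and Dsc3 were called lower in all 4 conditions. The share of all genes called in the same direction in all 4 is not given, here or for the genes named below. At 24 h HCM alone, 22.2% of all genes were called lower. In Rescue against PKP4-KO at 24 h HCM, all 8 cadherins were called higher, beside 21.7% of all genes. At 72 h HCM, 4 of 8 were called lower in PKP4-KO against WT (median -1.46, or -1.04 with bounds), beside 29.9% of all genes. Of the 3 plakophilins, Pkp1 (-0.81, SE 0.12, edgeR adjusted p = 1.31e-06) and Pkp3 (-0.68, SE 0.14, edgeR adjusted p = 0.000196) fell at 24 h HCM, and the median of the list was -0.81. At 72 h HCM, 2 of 3 plakophilins were called higher in PKP4-KO, beside 21.9% of all genes. Pkp1 was among them with 0.91 (SE 0.12, edgeR adjusted p = 2.56e-07).

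Of Dst, Plec, Macf1 and Eppk1, plakins that do not belong to the desmosome, 1 of 4 was called higher and 0 of 4 lower in PKP4-KO at 24 h HCM, with a median of 0.40, where 20.7% of all genes were called higher. In LCM 1 of 4 was called higher and 1 of 4 lower at both times, with medians of 0 at 24 h and -0.52 at 72 h. At 72 h HCM 2 of 4 were called higher and 1 of 4 lower (median -0.03). Of all genes, 19.7% were called higher and 20.6% lower at 24 h LCM. These shares were 21.3% and 23.8% at 72 h LCM, and 21.9% and 29.9% at 72 h HCM. Plec, the gene of plectin, which binds keratin at hemidesmosomes, was called higher in PKP4-KO in all 4 conditions. It had 119.6 ± 7.91 CPM in WT and 264.8 ± 24.7 CPM in PKP4-KO at 24 h HCM (1.15, SE 0.14, edgeR adjusted p = 8.62e-08). The proteins that are crosslinked with periplakin and envoplakin, and the enzymes that crosslink them, were called lower in 9 of 10 cases in PKP4-KO at 24 h HCM (median -2.44) and called higher in 9 of 10 in Rescue against PKP4-KO. Of all genes, 22.2% were called lower in the former comparison and 21.7% higher in the latter. Ivl (involucrin) had 58.1 ± 2.99 CPM in WT and 4.65 ± 1.51 CPM in PKP4-KO (-3.63, SE 0.3, edgeR adjusted p = 5.57e-11). Cdsn (corneodesmosin) had a log2 fold change of -5.28 (SE 0.24, edgeR adjusted p = 1.97e-16) and Tgm1 (transglutaminase 1) one of -3.59 (SE 0.22, edgeR adjusted p = 1.47e-13). In LCM, PKP4-KO had 1 of 10 called higher and 7 of 10 lower at 24 h (median -1.1), beside 19.7% and 20.6% of all genes. At 72 h LCM these were 6 of 10 and 1 of 10 (median 0.94), beside 21.3% and 23.8%. At 72 h HCM, PKP4-KO had 5 of 10 called higher and 3 of 10 lower (median 1.2), beside 21.9% and 29.9% of all genes. There Tgm1 was higher (2.35, SE 0.21, edgeR adjusted p = 3.54e-10) while Ivl remained lower (-2.83, SE 0.29, edgeR adjusted p = 4.01e-09).

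Of the 10 keratins listed as partners of desmoplakin, 5 of 10 were called lower at 24 h HCM in PKP4-KO and 3 of 10 higher. Their median was -0.70, or -0.27 with bounds. Of all genes, 22.2% were called lower and 20.7% higher there. At 24 h LCM 4 of 10 were called higher and 4 of 10 lower (median -0.19, or 0.12 with bounds), beside 19.7% and 20.6% of all genes. At 72 h LCM these were 5 of 10 and 0 of 10 (median 0.62, or 0.54 with bounds), beside 21.3% and 23.8%. At 72 h HCM they were 7 of 10 and 1 of 10 (median 1.12, or 0.73 with bounds), beside 21.9% and 29.9%. Krt1 and Krt10, the keratins of suprabasal cells, were called higher in all 4 conditions, with 4.02 (SE 0.53, edgeR adjusted p = 3.23e-07) and 1.09 (SE 0.38, edgeR adjusted p = 0.0211) at 24 h HCM. Krt6b had -2.23 (SE 0.2, edgeR adjusted p = 2.52e-10) at 24 h HCM, but its counts are uncertain because of the near-identical copy Krt6a. It was also called lower at 24 h LCM (-1.03), but higher at 72 h LCM (1.18) and 72 h HCM (1.6). Krt8, whose counts at 24 h HCM were at most 3 in every PKP4-KO library, was at least 12.8-fold lower there. Of the genes of the p53 and p63 axis, Trp63 and Trp53, whose proteins are known regulators of Perp, were higher in PKP4-KO at 24 h HCM, 2 of 4 genes called higher and 0 of 4 lower, beside 20.7% of all genes called higher. Trp63 had 1.33 (SE 0.28, edgeR adjusted p = 0.000279) and Trp53 0.81 (SE 0.25, edgeR adjusted p = 0.0102). Trp63 was not called in LCM, with 0.65 at 24 h and 0.48 at 72 h, nor at 72 h HCM (-0.19). Trp53 was called higher in LCM at 24 h (0.71, edgeR adjusted p = 0.0249) and 72 h (0.76, edgeR adjusted p = 0.0159) but not at 72 h HCM (0.04). Of the 4 genes of this list, 1 was called higher and 1 lower at 24 h LCM, 2 higher and 0 lower at 72 h LCM, and 1 higher and 1 lower at 72 h HCM. The shares of all genes called higher and lower were 19.7% and 20.6%, 21.3% and 23.8%, and 21.9% and 29.9%, respectively. Of the 4 adherens junction genes, Cdh1 (E-cadherin) and Ctnna1 (α-catenin) were called lower in all 4 conditions. At 24 h HCM 2 of 4 were called lower, with a median of -0.52, beside 22.2% of all genes called lower.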

How the data were processed

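RNA was sequenced from poly(A)-selected, strand-specific, paired-end libraries of 36 keratinocyte samples. According to the submitters' processing notes and methods, the authors aligned reads with HISAT2 2.1.0 to mm39 extended by the transgene GFP-PKP4, filtered out secondary alignments (SAMtools 1.10) and assigned the rest to genes of the Ensembl annotation (featureCounts 2.0.0). The deposited values are whole-number counts per gene, not normalized.

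Genes were filtered with filterByExpr and scaled with TMM factors, and the 12 group means were fitted with edgeR 4.0.16 (R 4.3.3) by its quasi-likelihood test with 24 residual degrees of freedom. Benjamini-Hochberg adjustment covered all 15114 tested genes, with a threshold of 0.05. DESeq2 1.42.0 served as an alternative. The scripts were tested on simulated data. Levels per kb used the gene length deposited beside the counts. Promoters and positions came from GRCm39 with the GENCODE annotation. Lists of related genes, like the 5 genes, were chosen with earlier results of these data known. From each list were named up to 3 genes with the largest change among those called at 24 h HCM in PKP4-KO, and genes called in the same direction in all 4 conditions. Likeness was ranked over log2 CPM with a prior count of 2.

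Replicate numbers recur in all groups. In 2 of 24 comparisons, Rescue against PKP4-KO at 72 h LCM and HCM against LCM in WT at 24 h, all 3 correlations between the deviations of same-numbered libraries were above 0.1, over a range of -0.72 to 0.70 in all comparisons. The 2 comparisons were fitted with the replicate number as a block too. The libraries without a low slope on gene length, that slope as a covariate, and offsets for length and GC content were alternatives chosen after seeing the data.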

Additional observations from a re-analysis of the deposited data

Results flagged for a closer look

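In 11 cases an effect on Jup, Evpl or Perp differed between lines or between times by a test of the difference itself (edgeR's quasi-likelihood test, Benjamini-Hochberg adjusted over all genes). All of them involve HCM at 72 h, and all 11 were called in each of the 12 fits that left out 1 library of the 4 groups.

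The calcium response of Rescue at 72 h was lower than that of PKP4-KO by a log2 difference of -1.89 for Jup (edgeR adjusted p = 1.01e-05), -1.16 for Evpl (edgeR adjusted p = 0.0143) and -1.19 for Perp (edgeR adjusted p = 0.000171). Against the calcium response of WT the difference was -1.08 for Jup (edgeR adjusted p = 0.0079) and -1.2 for Evpl (edgeR adjusted p = 0.02). From 24 h to 72 h in HCM, the log2 fold change of PKP4-KO against WT shifted by 1.91 for Jup (edgeR adjusted p = 6.05e-06), 1.84 for Evpl (edgeR adjusted p = 0.000245) and 1.40 for Perp (edgeR adjusted p = 1.62e-05). That of Rescue against PKP4-KO shifted by -2.29 for Jup (edgeR adjusted p = 1.92e-07), -2.69 for Evpl (edgeR adjusted p = 7.79e-07) and -1.81 for Perp (edgeR adjusted p = 1.63e-07).

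PKP4-KO at 72 h HCM had TMM factors of 0.48 to 0.55, lower than in any other group, and enters 9 of the 11 differences. With library sizes without these factors, the differences of Jup were -1.08 and -0.55 for the calcium response against PKP4-KO and WT, and 1.12 and -1.18 for the shifts with time. Of these 4, that against WT was no longer called (edgeR adjusted p = 0.066). For Evpl they were -0.34, -0.80, 1 and -1.54, with the last one called (edgeR adjusted p = 0.00419). For Perp the calcium response against PKP4-KO and the shifts with time were -0.37, 0.56 and -0.68, none of them called (lowest edgeR adjusted p = 0.0745). No difference changed its sign. The part of the scaling in these differences was not tested further.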

How the results depend on the processing

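Of 20 values each, 13 were called in PKP4-KO against WT, 15 in Rescue against PKP4-KO and 4 in Rescue against WT, and 14 and 13 of 30 in HCM against LCM and in 72 h against 24 h. Among 60 differences between effects 11 were called. Fits without 1 library gave 12 to 14, 14 to 16, 3 to 4, 12 to 16, 12 to 15 and 11 to 14 calls, respectively, and no called value changed its sign in them, whereas values near 0 that were not called did. Without TMM factors, 8 values were called in HCM against LCM, 6 in 72 h against 24 h and 4 differences. DESeq2 called 17 differences. Without the 7 libraries with a low slope, 9 values were called in Rescue against WT, 21 in 72 h against 24 h and 19 differences, and with the slope as a covariate 9, 22 and 23. These counts moved by over 1.5 times, and the cause was not tested. Among these alternatives, a called value changed sign, or a value came to be called with the opposite sign, only without TMM factors: Evpl (0.15) and Perp (0.22) in Rescue against PKP4-KO at 72 h HCM, Perp at 72 h HCM in PKP4-KO against WT (-0.59) and Ppl in 72 h against 24 h in PKP4-KO in HCM (-0.02).

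With the replicate number as a block in the fit of all groups, the calls were again 13, 15, 4, 14, 13 and 11. Where the numbers paired the libraries, the block in a fit of the 2 groups changed the call of Dsp in HCM against LCM in WT at 24 h (0.61) and no other call.

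Each of the 5 genes had at least 1109 counts in every library. With 3 libraries a group, the standard error of the log2 fold change between 2 groups was 0.31 to 0.32 for Dsp and 0.15 to 0.16 for Perp.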
